A study of Mus musculus with 6 samples.

Results

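C-type lectin receptors are a family of mostly membrane-bound proteins that share a carbohydrate-recognition fold, and in bone marrow they are carried mainly by myeloid cells. The genes described here are those whose only annotated symbol starts with Clec and a digit or with Cd209, or is Cd207, Mgl2, Asgr1, Asgr2 or Olr1. The platelet receptor gene Clec1b was left out. This rule found 44 genes among the 19938 genes measured, and it used no measured value. The cells came from mouse bone marrow and received a retroviral MSCV vector that carries MN1, a transcriptional coregulator with a known role in myeloid leukaemia, or a vector of the same kind without MN1. In both groups an internal ribosome entry site linked the insert position to a fluorescent reporter, and RNA was isolated from reporter-positive cells sorted 72 hours after transduction. The labels name the reporter GFP, while the series text names it YFP. There were 3 arrays of each kind, from transductions described as 3 independent experiments. Nothing in the sources used here gives the strain, sex or age of the mice, any pretreatment of the donors, or the culture conditions. The retroviral vector drives MN1 in whichever marrow cells it entered, so each array is a mixture of cell types.

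Receptors of this family sort into functional classes. Some activate the kinase Syk, either through a tyrosine motif of their own, as dectin-1 does, or through the adaptors FcR gamma (Fcer1g) and DAP12 (Tyrobp), and Syk then acts through Card9, Bcl10 and Malt1 on NF-kappa-B and cytokine genes. Others carry an inhibitory motif that recruits phosphatases. A further class takes up glycoproteins for degradation or presentation, and the Clec2 proteins are ligands of natural killer cell receptors.

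Most of the family lies in clusters. By the order of protein-coding genes in the RefSeq gene table, 26 of the 44 members are on chromosome 6, 10 on chromosome 8 and 4 on chromosome 11. The dectin-2 cluster on chromosome 6 holds 9 members in a row: Clec4a1, Clec4a3, Clec4a4, Clec4b1, Clec4a2, Clec4b2, Clec4n, Clec4d and Clec4e. Another stretch of chromosome 6 holds Clec9a, Clec1a, Clec7a and Olr1 in a row. On chromosome 8, Clec4g and 7 Cd209 genes are neighbours, and on chromosome 11 Asgr1, Asgr2, Mgl2 and Clec10a are. Probe sets of such close paralogs may share signal, which could not be checked here because no probe sequence was used.

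The upstream sequences of 4 members, chosen with the motifs below after the values were seen, are shown as a description. They were not related to any expression value. Clec5a and Clec4d had the largest differences in each direction among the receptors that signal through an adaptor, and Clec4a1 and Clec7a varied the most between arrays of the same group. Each is the 250 bases before the transcription start on the gene's own strand, from RefSeq on GRCm38.p6. They lie at chr6:40585806-40586055 on the minus strand for Clec5a, chr6:123261857-123262106 on the plus strand for Clec4d, chr6:122921598-122921847 on the plus strand for Clec4a1 and chr6:129472780-129473029 on the minus strand for Clec7a, where the lower of 2 listed starts was taken. Capitals mark GAGGAA or its reverse complement, a core found in sites of the myeloid factor PU.1.
Clec5a: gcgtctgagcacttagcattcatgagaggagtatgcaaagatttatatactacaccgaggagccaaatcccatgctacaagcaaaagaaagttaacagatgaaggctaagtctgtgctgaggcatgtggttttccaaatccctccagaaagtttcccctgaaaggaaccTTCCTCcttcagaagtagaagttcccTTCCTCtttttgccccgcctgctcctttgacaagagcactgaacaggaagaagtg
Clec4d: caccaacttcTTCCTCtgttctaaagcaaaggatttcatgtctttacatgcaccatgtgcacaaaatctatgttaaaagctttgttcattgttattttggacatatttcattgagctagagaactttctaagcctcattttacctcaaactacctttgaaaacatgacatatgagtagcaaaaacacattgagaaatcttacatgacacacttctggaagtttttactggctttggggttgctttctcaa
Clec4a1: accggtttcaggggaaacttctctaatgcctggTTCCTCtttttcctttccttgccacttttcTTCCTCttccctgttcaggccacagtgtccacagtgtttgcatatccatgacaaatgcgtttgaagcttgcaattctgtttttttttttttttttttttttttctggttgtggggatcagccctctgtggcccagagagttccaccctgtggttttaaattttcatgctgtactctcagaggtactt
Clec7a: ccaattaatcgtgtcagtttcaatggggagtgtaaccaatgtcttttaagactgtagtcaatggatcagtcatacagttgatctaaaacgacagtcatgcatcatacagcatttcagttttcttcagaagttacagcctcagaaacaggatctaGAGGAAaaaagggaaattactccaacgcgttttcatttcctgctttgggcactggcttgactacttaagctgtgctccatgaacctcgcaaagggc

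The core occurs 2 times in the Clec5a and Clec4a1 windows and 1 time in those of Clec4d and Clec7a. Of 41 windows that matched 37 members, 20 (48.8%) held GAGGAA on either strand, against 23.3% of all 32851 windows in the table. An AP-1 motif, TGANTCA, stood in 10 member windows (24.4%) and in 6.75% of all, and a C/EBP motif, TTGCNNAA, in 6 (14.6%) and in 9.56% of all. Windows of a gene with several starts overlap, and matches were counted on both strands, with any overlap between motifs allowed. Close paralogs can also share upstream sequence. Cd209f and Cd209g hold the same stretch around an AP-1 motif, and the Clec2e and Clec2h windows are much alike. The member windows are therefore not independent, and the shares were not tested. A match describes these letters and does not show that a factor binds there.

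Setting MN1 against the empty vector addresses the early response of marrow cells to the introduced gene. Expression values are on the log2 scale as the authors deposited them (RMA), and a difference is the MN1 mean less the empty vector mean, with the moderated standard error (SE) of limma. A probe set's value also depends on its probes, so levels are not compared between genes. Mn1 itself measured 6.08 to 6.62 on the MN1 arrays and 4.80 to 5.41 on the empty vector arrays. Its difference was 1.20 ± 0.21 (SE) with an adjusted p of 0.584 (limma). Mn1 was thus not called, at a mean value of 5.785, below the median of all genes. Whether its probes match the introduced MN1 could not be checked, because no probe sequence was used. With 0% of all genes called, a lack of calls with these arrays says little about a gene. All 10 haematopoietic markers listed for bone marrow, among them Ptprc, Spi1 and Kit, had values above the median of all genes, 6.55, and albumin (Alb), of hepatocytes, lay at 4.04 to 4.48. Array medians over all probe sets ran from 5.82 to 6.01. No detection call was used, and 29 of the 44 members had a mean value below the median of all genes. The other 15 are called the brighter members here.

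No member passed adjustment over all genes: limma with Benjamini-Hochberg adjustment called 0 of 44 at an adjusted p under 0.05, as it called 0% of all genes. At an unadjusted p under 0.05 there were 2 of 44 members (4.55%), both lower with MN1, where 8.4% of all genes were below it in either direction and 4.23% were lower. Leaving out empty vector replicate 3 gave 6, where 9.8% of all genes were below it. Without MN1 replicates 1 and 2, each left out alone, it was 1 and 4, beside 6.62% and 9.72% of all genes. The MN1 arrays lay below all empty vector arrays for 3 members, against 10.3% of all genes, and above them for 0 members, against 5.71%. After median-centring the arrays there were 3 members below and 3 above, beside 6.17% and 6.66% of all genes; those above were Cd209a, Clec4n and Clec9a, those below were Clec2e, Clec3a and Clec4a4, and Clec2h then overlapped. The share of members without overlap was therefore under that of all genes with the deposited values and not after centring. By direction, 15 members were higher and 29 lower. Their median difference was -0.10, beside -0.03 over all genes, 56.7% of which were lower. After median-centring, 19 were higher and 25 lower. Among the 15 brighter members, 9 were higher and 6 lower, and their median was 0.06 (0.07 over the 9969 brighter genes, 61.8% of which were higher). Genes below the median level were thus lower with MN1 more often than the 56.7% over all genes. The direction counts by class and by marker list below were not adjusted for this. At least 2-fold differences were met in 1 member, Clec5a, and in 1.37% of all genes.

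**Figure D1:**
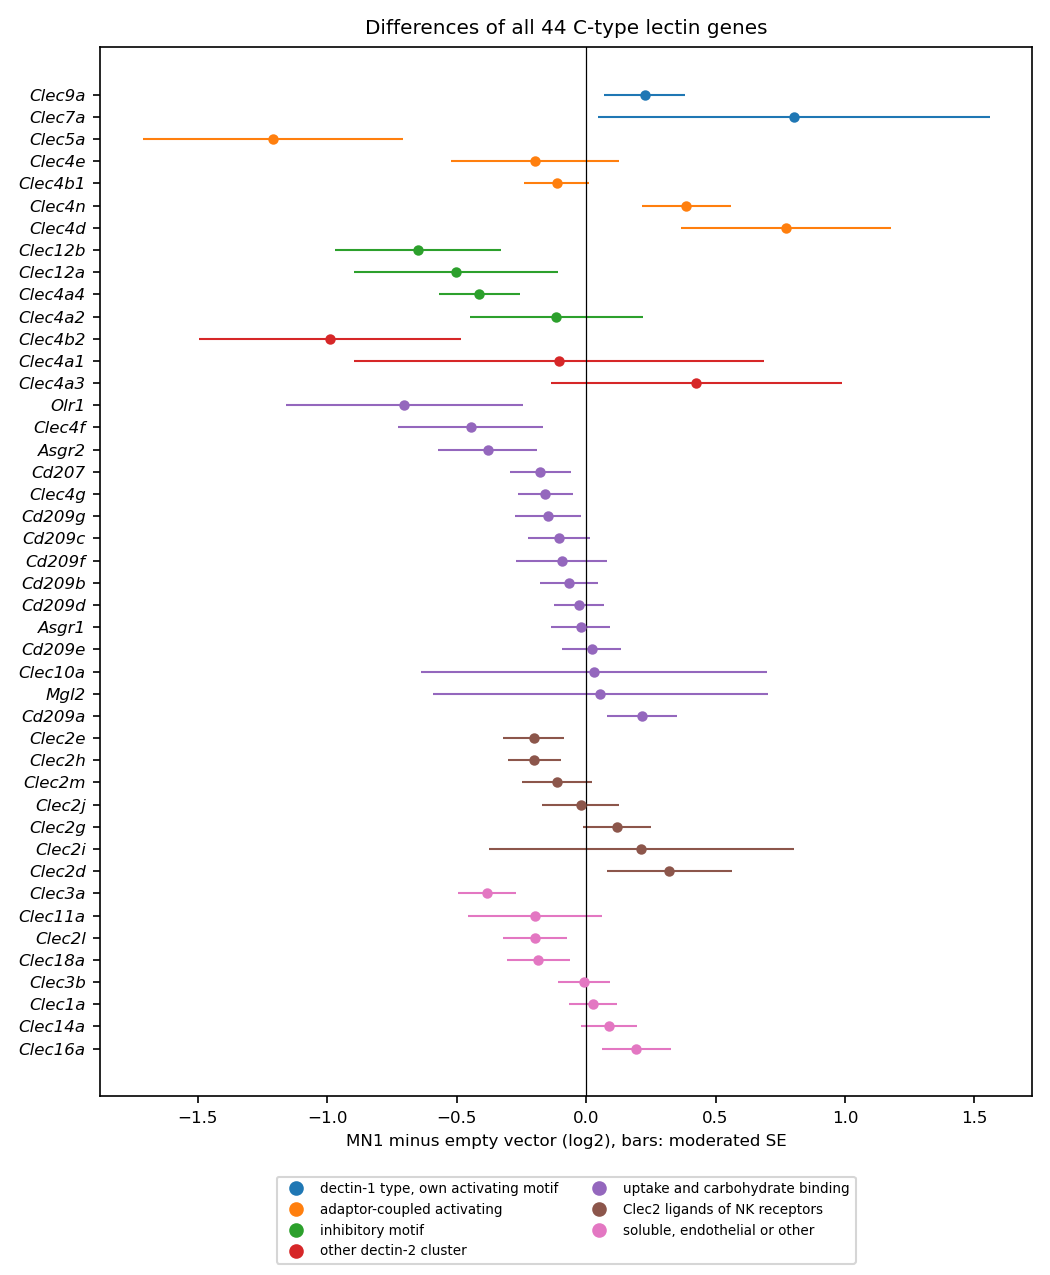
The log2 difference between MN1 and empty vector for each of the 44 genes, with its moderated SE as the bar, is coloured by functional class. Most points lie within 0.5 of 0, Clec5a is the farthest to the left at -1.21, and Clec7a and Clec4d are the farthest to the right at 0.80 and 0.77.

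Since no member passed the test, the values below describe these arrays and are not calls. Among receptors that signal through an activating adaptor, Clec5a was measured lower and Clec4d and Clec4n higher. Clec5a encodes MDL-1, a DAP12-coupled receptor of monocytes and neutrophils. It measured 10.76, 11.30 and 9.43 on the empty vector arrays and 9.0, 9.87 and 8.99 on the MN1 arrays. Empty vector arrays 1 and 2 lay above every MN1 array, while array 3 fell among them, so the groups overlapped. Its difference was -1.21 ± 0.50 (SE), or 2.31-fold lower, with a 95% confidence interval from -2.42 to 0.00 and an adjusted p of 0.584 (limma). It was -1.75 without empty vector replicate 3 and -0.81 without empty vector replicate 2.

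Clec4d encodes MCL, a receptor for mycobacterial glycolipids that pairs with Mincle. It measured 9.66, 9.31 and 10.94 with the empty vector and 10.89, 10.67 and 10.66 with MN1. The 3 MN1 values lay close together, and of the empty vector arrays only array 3 reached their level. The difference was 0.77 ± 0.41 (SE; adjusted p 0.597, limma), or 1.26 without empty vector replicate 3 and 0.44 without empty vector replicate 2.

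Its neighbours Clec4e and Clec4n had overlapping groups as well. Clec4e encodes Mincle itself, the receptor for mycobacterial cord factor, and measured 11.69, 11.20 and 11.75 with the empty vector and 11.18, 12.04 and 10.83 with MN1. These values interleave, with a difference of -0.20 ± 0.32 (SE) and a 95% interval from -0.98 to 0.58. Clec4n encodes dectin-2, a receptor for fungal mannans, and gave 11.55, 11.42 and 11.40 with the empty vector against 12.13, 11.91 and 11.49 with MN1. MN1 arrays 1 and 2 were above all empty vector arrays and MN1 array 3 was among them. The difference was 0.39 ± 0.17 (SE; adjusted p 0.584, limma), 0.56 without MN1 replicate 3 and 0.24 without MN1 replicate 1. Clec4b1, which encodes the FcR gamma-coupled receptor DCAR, had low values of 3.69 to 4.12 and a difference of -0.11 ± 0.12. Of the 5 adaptor-coupled genes, 2 were higher and 3 lower.

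**Figure D2:**
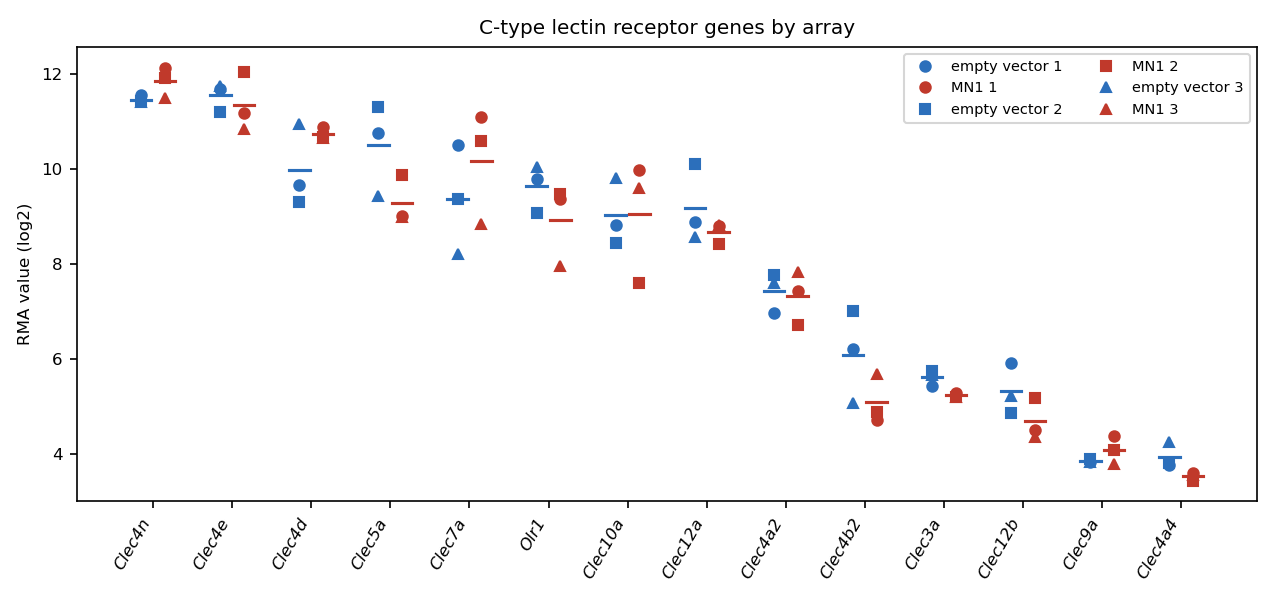
Values of 14 genes on each of the 6 arrays on the log2 scale, with empty vector in blue, MN1 in red, the marker shape giving the replicate number and a bar at each group's mean. The groups overlap for every gene shown except Clec3a and Clec4a4, and for Clec4d and Clec5a the empty vector array 3 stands away from the other 2.

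Both receptors with an activating motif of their own were measured higher, with overlapping groups. Clec7a encodes dectin-1, the receptor for fungal beta-glucan. It measured 10.51, 9.36 and 8.21 with the empty vector and 11.09, 10.58 and 8.83 with MN1. Within each group array 3 was the lowest, and the spread inside a group, an SD of 1.15 and 1.18 (n = 3), was larger than the difference of 0.80 ± 0.76 (SE; adjusted p 0.723, limma). That difference was 1.47 without MN1 replicate 3, 1.38 without empty vector replicate 1, 0.34 without MN1 replicate 1 and 0.23 without empty vector replicate 3. It was 0.89 without both replicate 3 arrays. With the replicate number as a block in the model, its SE was 0.17, its unadjusted p 0.00639 and its adjusted p 0.5 (limma). The labels do not say that equal numbers pair the arrays. Clec9a encodes DNGR-1, which senses the actin of dead cells on cross-presenting dendritic cells. It had low values, 3.84, 3.90 and 3.84 with the empty vector and 4.38, 4.08 and 3.80 with MN1, and a difference of 0.23 ± 0.16. That was 0.08 without MN1 replicate 1 and 0.37 without MN1 replicate 3.

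All 4 receptors with an inhibitory motif were measured lower with all arrays included (median difference -0.46), but Clec4a2 was higher when array 2 of either group was left out. Clec12a encodes MICL, an inhibitory receptor for uric acid crystals on granulocytes and monocytes. It measured 8.88, 10.10 and 8.56 with the empty vector and 8.80, 8.42 and 8.81 with MN1. Empty vector array 2 was high and the other arrays overlapped. The difference was -0.50 ± 0.39 (SE; adjusted p 0.679), -0.04 without that array and -0.81 without empty vector replicate 3. Clec4a2 encodes DCIR, an inhibitory receptor of dendritic cells and monocytes, and gave 6.96, 7.76 and 7.60 against 7.42, 6.71 and 7.84 with MN1. Those groups interleave, and the difference was -0.11 ± 0.33, with a 95% interval from -0.92 to 0.69. With array 2 left out it was 0.19 (MN1) or 0.044 (empty vector), and -0.37 with MN1 array 3 left out. Clec12b and Clec4a4 had low values. Clec12b gave 5.91, 4.87 and 5.23 with the empty vector and 4.51, 5.18 and 4.36 with MN1, a difference of -0.65 ± 0.32 (SE; adjusted p 0.594) with overlapping groups, which was -0.36 without empty vector replicate 1. Clec4a4, which encodes the dendritic cell receptor DCIR2, gave 3.77, 3.81 and 4.26 against 3.61, 3.44 and 3.55 with MN1. Here the groups did not overlap and the unadjusted p was 0.035, with a difference of -0.41 ± 0.15 (SE; adjusted p 0.584, limma), at a mean value in the lowest 6.6% of all genes. Without empty vector replicate 3 the difference was -0.25 and the unadjusted p 0.064.

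The 3 other genes of the dectin-2 cluster have less certain functions, and their groups overlapped. Clec4b2 measured 6.20, 7.0 and 5.07 with the empty vector and 4.72, 4.89 and 5.68 with MN1. Empty vector arrays 1 and 2 were the highest and array 3 lay among the MN1 arrays, as for Clec5a. The difference was -0.99 ± 0.51 (SE; adjusted p 0.596, limma), -1.50 without empty vector replicate 3 and -0.53 without empty vector replicate 2. Clec4a1 and Clec4a3, named for their spread between arrays after their values were seen, differed by -0.11 ± 0.79 and 0.43 ± 0.56, less than their within-group SDs of 1.23 and 0.86.

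Among 15 receptors of uptake and carbohydrate binding, 4 were higher and 11 lower, and the groups did not separate for any with the deposited values. Only 3 of the 15 were brighter members, and genes below the median level were lower more often than all genes. Olr1 encodes LOX-1, a scavenger receptor for oxidised low-density lipoprotein. It measured 9.79, 9.07 and 10.05 with the empty vector and 9.37, 9.47 and 7.96 with MN1, so MN1 array 3 lay apart from the rest. The difference of -0.70 ± 0.46 (SE; adjusted p 0.64, limma) was -0.22 without that array. Clec10a and Mgl2 encode the macrophage galactose-type lectins, which bind terminal galactose and N-acetylgalactosamine. Clec10a measured 8.82, 8.45 and 9.81 with the empty vector and 9.97, 7.60 and 9.60 with MN1. MN1 held both the highest and the lowest value, and the difference was 0.03 ± 0.67, with a 95% interval from -1.58 to 1.64. Its direction was not stable, since it was -0.04 after quantile normalization and -0.15 with array weights. Mgl2 gave 10.91, 9.45 and 8.30 against 10.06, 9.72 and 9.03 with MN1, a difference of 0.05 ± 0.65. The intervals of Clec10a and Mgl2 both span changes of more than 2-fold in either direction.

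The other 12 genes of this class had mean values of 3.73 to 5.77. They are the 7 Cd209 genes, which are relatives of human DC-SIGN, Cd207, which encodes langerin of Langerhans cells, the Kupffer cell receptor gene Clec4f, the sinusoidal endothelial receptor gene Clec4g, and Asgr1 and Asgr2, the subunits of the hepatocyte asialoglycoprotein receptor. Their differences ran from -0.45 for Clec4f to 0.22 for Cd209a. Clec4f gave 6.15, 6.35 and 5.33 with the empty vector and 5.72, 5.53 and 5.25 with MN1, and Asgr2 gave 5.98, 6.31 and 5.59 against 5.70, 5.59 and 5.45. In both, empty vector arrays 1 and 2 were above every MN1 array and array 3 was not.

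Of 7 Clec2 genes, 3 were higher and 4 lower, with differences between -0.20 and 0.32. Clec2d encodes Clr-b, a ligand that restrains natural killer cells through an Nkrp1 receptor, and gave 9.43, 8.95 and 9.36 with the empty vector and 10.06, 9.28 and 9.36 with MN1. MN1 array 1 was the highest and the rest overlapped (0.32 ± 0.24). Clec2i, which encodes the related ligand Clr-g, gave 7.29, 7.76 and 8.33 against 7.69, 7.03 and 9.30 with MN1, a difference of 0.21 ± 0.59. Clec2h had groups that did not overlap, at 5.05 to 5.17 with the empty vector and 4.79 to 5.03 with MN1, and a difference of only -0.20 ± 0.10 (adjusted p 0.597, limma).

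Of the 8 soluble, endothelial or otherwise unclassed members, 3 were higher and 5 lower, and only 1 was a brighter member. Clec3a, a cartilage lectin gene, had the smallest unadjusted p of all members, 0.0131, with values of 5.44, 5.75 and 5.67 on the empty vector arrays and 5.29, 5.20 and 5.21 on the MN1 arrays. The groups did not overlap, and the difference was -0.38 ± 0.11 (SE; adjusted p 0.584, limma). Clec16a, an autophagy-related gene that is not a lectin receptor in function, had values of 8.15 to 8.69 on all arrays and a difference of 0.19 ± 0.13. Clec11a, which encodes the secreted stem cell growth factor SCGF, differed by -0.20 ± 0.26. Clec14a, of endothelium, Clec3b, which encodes tetranectin, and Clec1a, Clec18a and Clec2l differed by -0.20 to 0.09.

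Arrays within a group differed widely in the brighter members. Their median within-group SD was 0.70, against 0.24 over all 9969 brighter genes. The widest was Clec4a1, with an SD of 1.23 at percentile 99.5 of all genes, followed by Clec7a at 1.17, Clec10a at 1.03, Mgl2 at 1.00 and Clec2i at 0.90. Part of this spread ran along the replicate number. Clec4a1 measured 11.08 and 11.44 on array 3 of the empty vector and MN1 groups and 8.83 to 9.40 on the other 4. Clec4a3 was at 7.96 and 8.11 on array 3 of these groups and at 6.11 to 7.53 on the others. Clec7a and Mgl2 went the other way, with both replicate 3 arrays below the other 4.

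In all, the same-numbered arrays of both groups were the 2 highest or the 2 lowest of the 6 for 10 members (22.7%) with number 3, against 17.2% of all genes. For number 2 this was also 10 members (22.7%), against 9.61% of all genes, and for number 1 it was 6 members (13.6%), against 11.8%. Among the 15 brighter members it was 5 (33.3%) for number 3, against 18.6% of all brighter genes, namely Clec2i, Clec4a1 and Clec4a3 at the top and Clec7a and Mgl2 at the bottom. For number 2 it was 3 (20%), against 6.95%, namely Clec10a, Clec16a and Clec2d at the bottom, and for number 1 it was 2 (13.3%), against 12.3%, namely Clec2d and Mgl2 at the top. This count was chosen after the values were seen and has no test. The labels do not say that equal numbers mark a shared experiment.

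**Figure D3:**
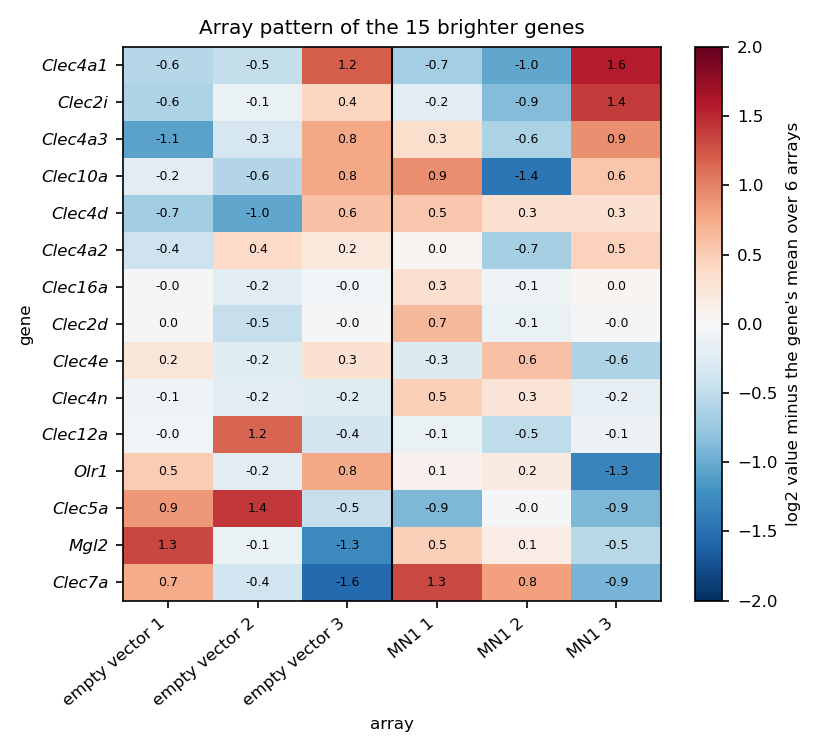
Each cell gives the log2 value of 1 of the 15 brighter genes on 1 array minus that gene's mean over the 6 arrays, with the 3 empty vector arrays to the left of the line and the 3 MN1 arrays to the right. Clec4a1 and Clec4a3 are high on array 3 of both groups and Clec7a and Mgl2 are low on it, while no gene separates the 3 left columns from the 3 right ones.

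Markers of the cell types that carry these receptors also differed between arrays. In a mixture, fewer cells of a type and less RNA per cell cannot be told apart. Summed over 17 granulocyte markers, 16 of them lower with MN1, the level (log2 of the sum) was 15.49, 16.29 and 14.91 on the empty vector arrays and 13.83, 14.70 and 15.24 on the MN1 arrays. Empty vector arrays 1 and 2 were the highest, as they were for Clec5a and Clec4b2. Among the MN1 arrays this sum and Clec4b2 rose from array 1 to array 3, while Clec5a was highest on array 2. Such a sum rests most on the genes with the highest values. Monocyte and macrophage markers, 13 of 18 higher, summed to 13.65 to 14.28 with the empty vector and 14.58 to 15.32 with MN1. These sums did not overlap. Of these markers 6 had an unadjusted p under 0.05 (limma), all higher, and groups did not overlap for 5 higher and 0 lower. Dendritic cell markers, 7 of 20 higher, summed to 13.63 to 14.35 with the empty vector and 13.19 to 14.77 with MN1. Of these, 2 higher and 4 lower had an unadjusted p under 0.05 (limma). Groups did not overlap for 2 higher and 5 lower. The sum over 13 basophil, mast cell and eosinophil markers, 12 of them lower, was 14.53 to 15.34 with the empty vector and 13.91 to 15.01 with MN1. Of these, 3 had an unadjusted p under 0.05 (limma), all lower, and groups did not overlap for 0 higher and 2 lower. Among granulocyte markers 1 met that p, a lower one, and overlap was absent for 0 higher and 1 lower. Over all genes, 8.4% met that p, and 5.71% higher and 10.3% lower had no overlap. In these lists 0 markers passed the test (limma). On the replicate 3 arrays of both groups, 5 of 9 B cell markers had their 2 highest values and 0 their 2 lowest. Of the 17 granulocyte markers 3 had their highest there and 6 their lowest. These lists had the highest shares, 55.6% and 52.9%, against 17.2% of all genes. The share was 30.8% for basophil, mast cell and eosinophil markers, 22.2% for monocytes and macrophages and 20% for dendritic cells. It was 25% for endothelium and 0% for megakaryocyte, T and natural killer cell, and hepatocyte markers. B cell markers also ran along number 2, where 4 of 9 (44.4%) had their 2 lowest values, against 9.61% of all genes in either direction. For number 2 the share was 22.2% for T and natural killer cell markers and 0% for granulocyte markers. For number 1 the highest share of these lists was 20%, for dendritic cells, against 11.8% of all genes. The part of these cell types in the values of the lectin genes was not tested.

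Markers of other cells were counted as well. Megakaryocyte and platelet markers were higher for 6 of 6, at a summed level of 11.53 to 13.00 with the empty vector and 13.00 to 14.25 with MN1. T and natural killer cell markers were lower for 7 of 9, at 10.36 to 11.38 and 9.17 to 10.62. Of these 9 markers, 7 had mean values below the median of all genes, where genes were lower with MN1 more often than overall. Of 9 B cell markers 5 were higher, at 9.51 to 11.48 and 11 to 11.87, and 6 had mean values below that median. Of 8 endothelial markers 6 were higher, at 10.28 to 10.86 and 10.53 to 10.88, and 5 of the 8 had values below the median of all genes. Hepatocyte markers were higher for 2 of 5, at 10.43 to 10.54 and 10.60 to 11.63, a sum that rests on transferrin (Trf), which other cells also express. Groups did not overlap for 2 megakaryocyte and 2 endothelial markers, all higher, and for 0 B cell markers. Overlap was also absent for 3 lower T and natural killer cell markers and for 1 higher and 2 lower hepatocyte markers. The shares over all genes were 5.71% higher and 10.3% lower.

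The signalling genes downstream of the receptors were nearly evenly split. Of 36 listed genes 32 were measured, of which 17 were higher and 15 lower (median difference 0.02). In this list 0 passed the test (limma) and 3 had an unadjusted p under 0.05, beside 8.4% of all genes. Groups did not overlap for 2 genes that were higher and 2 that were lower, beside 5.71% and 10.3% of all genes. The adaptor Fcer1g measured 11.97, 11.86 and 12.23 with the empty vector and 12.24, 12.06 and 12.36 with MN1 (0.20 ± 0.14). Tyrobp, the adaptor of Clec5a, gave 11.25, 11.08 and 10.92 against 11.40, 10.77 and 11.06 (-0.01 ± 0.18). For the kinase Syk the difference was 0.16 ± 0.18 and for Card9 it was -0.09 ± 0.32. These 4 genes all had overlapping groups. The largest differences of the list were in the kinase gene Src (0.89 ± 0.68), the exchange factor gene Vav3 (0.63 ± 0.16), the inflammatory caspase gene Casp1 (0.59 ± 0.20) and the inflammasome adaptor gene Pycard (0.45 ± 0.24). Vav3 gave 7.99, 7.78 and 7.82 with the empty vector and 8.77, 8.23 and 8.49 with MN1, groups that did not overlap.

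Among 14 cytokine and response genes that such receptors induce, 7 were higher and 7 lower (median -0.004). Here 0 passed the test (limma) and 2 had an unadjusted p under 0.05, beside 8.4% of all genes. Groups without overlap were found for 0 higher and 2 lower genes, beside 5.71% and 10.3% of all genes. Il6, the inflammatory cytokine interleukin 6, measured 10.31, 10.14 and 10.56 with the empty vector and 8.77, 9.02 and 9.99 with MN1. Every MN1 array lay below every empty vector array, with a difference of -1.08 ± 0.32 (SE; adjusted p 0.584, limma). Ptgs2, which encodes cyclooxygenase 2, differed by -0.79 ± 0.51, the chemokine gene Cxcl1 by 0.71 ± 0.71 and Il10 by 0.50 ± 0.43, all with overlapping groups.

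Other receptors with the same fold, under other gene names, were compared as well. Of 25 listed, 23 were measured, of which 12 were higher and 11 lower (median 0.01). Among them 0 passed the test (limma) and 2 had an unadjusted p under 0.05, beside 8.4% of all genes. Overlap was absent for 1 higher and 1 lower gene, beside 5.71% and 10.3% of all genes. Ly75, which encodes the endocytic receptor DEC-205, gave 7.41, 7.13 and 7.82 with the empty vector and 8.55, 8.30 and 8.02 with MN1, without overlap, a difference of 0.84 ± 0.22 (SE; adjusted p 0.584, limma). The mannose receptor gene Mrc1 differed by 0.80 ± 0.44, the scavenger receptor gene Colec12 by 0.95 ± 0.56 and the Clr-g receptor gene Klrb1f by -0.82 ± 0.45, each with overlapping groups.

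**Figure D4:**
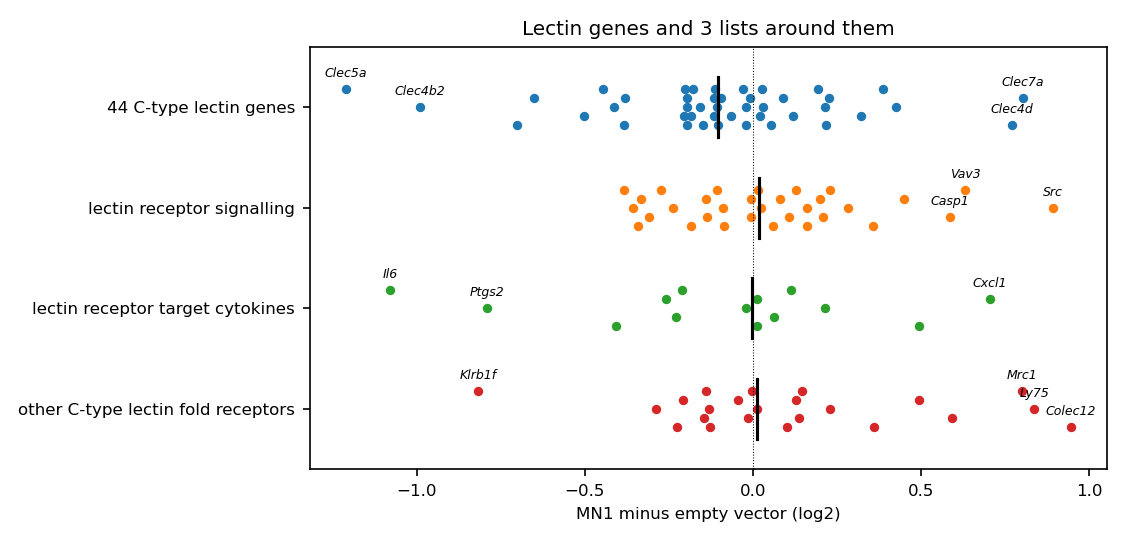
Each point is the log2 difference of 1 gene between MN1 and empty vector, positive where MN1 was higher, for the 44 lectin genes and 3 lists around them, with a black bar at each median. The medians lie at -0.10, 0.02, -0.004 and 0.01, and the lectin genes spread from -1.21 to 0.80.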

How the data were processed

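RNA from sorted, transduced marrow cells (200 ng of total RNA, per the labels' protocols) was hybridised to one-colour Affymetrix whole-transcript arrays. The authors deposited 1 log2 value per probe set, from RMA per the submitters' processing notes, with a version not given in the sources used here. That the scale is log2 was inferred from the range, 2.29 to 14.80. RMA compresses dim values, so a real difference of a dim gene may be understated. Without a detection call, a small difference of a dim gene cannot be told from background. The number of arrays limits the precision. The p-values weigh a difference only against the spread between these arrays, moderated over all genes.

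Of 35557 probe sets, the platform annotation gives 21789 1 symbol and 1621 several and leaves 12147 unlisted, and 21698 matched RefSeq's gene table by gene ID. Per gene the probe set with the highest mean was kept (19938 genes); of the members, Clec4g had several. Limma 3.58.1 (R 4.3.3; lmFit, eBayes, no block) compared 3 MN1 with 3 empty vector arrays, two-sided, with p-values adjusted by Benjamini-Hochberg for all genes and a threshold of 0.05. The fit was tested on simulated data. Per-array values are given for members with a difference of at least 0.5, an unadjusted p under 0.05, or non-overlapping groups and a mean above the median of all genes, and for 9 well-known receptors. Those of Mgl2, Clec4f, Asgr2, Clec2d, Clec2i, Clec4a1 and Clec4a3 are given outside this rule and were chosen after their values were seen; other members are described by class. Members and lists were chosen with earlier results of these data known. Alternatives were the replicate block, median-centring, quantile normalization, leaving out the dimmest 40% of probe sets, averaging a gene's probe sets, a trended robust prior, array weights and leaving out each array; leaving out both replicate 3 arrays was added after seeing the data.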

Additional observations from a re-analysis of the deposited data

How the results depend on the processing

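No gene, and no member, passed an adjusted p of 0.05 under any of the 14 alternatives (limma); adjusted p values of the 14 named members ran from 0.467 to 0.996 there. Their differences kept the direction in 183 of 193 alternative values, and the 10 others were in Clec10a, Clec4a2 and Clec4e. The replicate block, the trended robust prior, averaging probe sets and the dim filter cannot change a difference of these members. Their agreement was fixed in advance, and the other settings reuse the same arrays, so this count does not measure stability. Clec10a was -0.04 after quantile normalization and -0.15 with array weights. Leaving out 1 array at a time gave -0.42 to 0.76 for Clec10a, -0.37 to 0.19 for Clec4a2 and -0.54 to 0.061 for Clec4e. Without both replicate 3 arrays Clec4e was 0.16.

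The count of members at an unadjusted p under 0.05, 2 with all arrays, was 1 to 6 with 1 array left out (4.54% to 9.8% of all genes) and 6 without both replicate 3 arrays (6.9% of all genes). The 3 members with MN1 below the empty vector became 4 to 11 with 1 array left out and 12 without both replicate 3 arrays, and the 0 above became 0 to 3 and 5; fewer arrays separate more easily, and over all genes these shares were 13.1% to 20% below and 8.41% to 12.1% above with 1 array left out, and 24.7% and 17.2% without both replicate 3 arrays. The 11 below came without MN1 replicate 2 (20% of all genes) and without empty vector replicate 3 (19.4%). The count above was 3 after median-centring (6.66% of all genes) and 1 after quantile normalization (4.24%), and the count below was 1 of the 22 members tested without the dimmest 40% of probe sets (7.67%). After median-centring, 1 member was higher and 2 lower at an unadjusted p under 0.05, and over all genes 977 were higher and 400 lower, against 832 and 843. The cause of the other shifts was not tested.

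The deviations of same-numbered arrays from their group means correlated at 0.13, 0.07 and 0.32 over all genes for numbers 1, 2 and 3, so the numbers were not taken to pair the arrays; MN1 arrays 1 and 3, but not 2, correlated best with their own number. With the replicate block, 5 members had an unadjusted p under 0.05 (9.93% of all genes) and 0 an adjusted one, the smallest adjusted p of a member being 0.5. These members were Clec3a, Clec4a4, Clec4n, Clec5a and Clec7a. The SE of Clec5a was then 0.28 and that of Clec3a 0.12, against 0.50 and 0.11 without the block.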
